A study of Caenorhabditis elegans with 36 samples.

Results

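The comparison described here is the effect of losing MUT-16 on the messenger RNA of *C. elegans* adults raised at 25°C. It set 3 *mut-16*(pk710) libraries against 3 wild-type (N2) libraries, 6 of the 36 samples in the series, and covered all genes. Every library was made from polyadenylated RNA of 8000 whole animals labelled day 1 adults, started as synchronized first-stage larvae and kept at 25°C for about 48 h. The groups used were *mut-16* at 25°C and wild-type at 25°C, together with 3 *mut-16* and 3 wild-type libraries from animals raised at 20°C, and the small RNA libraries of *mut-16* and wild-type animals at 25°C, which served to place the mRNA changes. The mutation was carried by the whole animal, and a single *mut-16* strain was used. The paper's methods call the replicates biological.

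MUT-16 is the scaffold of Mutator foci, germ-cell condensates that sit at the outer face of P granules and gather the enzymes that amplify secondary small interfering RNAs. RNA-dependent RNA polymerases copy target transcripts there, and the short antisense products are bound by worm-specific Argonaute proteins (WAGOs) that silence transposons, pseudogenes and many germline and somatic genes. A second branch, built around the Argonaute CSR-1, binds small RNAs against genes that germ cells express. The adult hermaphrodite has a germline that has turned from making sperm to making oocytes, and a soma that no longer divides. In whole animals, fewer cells of a type and less RNA per cell cannot be told apart, and this holds for every gene group below.

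Levels are given as RPM, a gene's count relative to the total count of its library, and fold changes as log2 of *mut-16* over wild-type after TMM scaling, which trims extreme genes before it sets the library sizes. A gene was called higher or lower when its Benjamini-Hochberg adjusted p in edgeR's quasi-likelihood test was under 0.05. Library totals ran from 15432009 to 34195602 counts in *mut-16* and from 21675767 to 28472933 in wild-type. Between 18096 and 19040 genes had a count in the *mut-16* libraries, against 17056 to 17519 in the wild-type libraries. Replicate 1 of *mut-16* had the lowest total and stood apart from the other two. Its vitellogenin share was 4.89%, against 2.95% and 3% in replicates 2 and 3, and transcripts in the longest of 5 equal groups by exon length were 0.14 higher in it (median log2) than in the mean of the other two. Replicates 2 and 3 of *mut-16* were the closest pair, with a chi-square of 1.63 per gene against 3.15 to 28.6 for the other pairs at 25°C. That pair still differed by more than counting noise, and both were kept. Whether they are as independent as the other replicates was not tested, and p-values rest on counting them as 2 libraries. Added up as 1 library they gave 5699 genes higher and 4236 lower.

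Of 14623 genes tested, 6022 were higher in *mut-16* at 25°C (41.2% of the genes tested) and 4753 were lower (32.5%). The increases were larger than the decreases. At least a 2-fold change was seen for 3169 of the genes that were higher (21.7% of the genes tested) and for 240 of those that were lower (1.64%), and at least a 4-fold change for 1530 and 30. Without *mut-16* replicate 1, 5892 genes were higher and 4752 lower. In 11495 genes (78.6%) the 3 *mut-16* and the 3 wild-type RPM values did not overlap. The median log2 fold change over all genes was 0.16. It was 0.37 when libraries were scaled by their total counts, and 0.13 with the size factors of DESeq2. Scaling therefore moved the balance of the calls. Genes higher in *mut-16* made up 55.9% of the genes called under TMM and 53.0% with DESeq2 (5558 higher and 4928 lower), and under total counts 7235 genes were higher and 2680 lower. A fold change below is read against the median of 0.16, and the share of a gene list against 41.2% higher and 32.5% lower. Counts for a gene list or chromosome are repeated under total counts where they change by more than 1.5 times or turn round.

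The direction of the change followed how abundant a gene was. Genes were ordered by mean RPM per kb of exon over the 12 mRNA libraries, a level that includes the libraries compared, and cut into 5 groups of equal size. In the lowest group 68.2% of genes were higher in *mut-16* and 3.57% lower, with a median log2 fold change of 1.20. In the next group 62.5% were higher and 6.62% lower, and in the middle group 46.5% were higher and 21.3% lower. The balance turned in the upper groups, with 18.3% higher and 64.3% lower in the fourth and 10.8% higher and 67% lower in the highest. The median log2 fold change of these upper groups was −0.37 and −0.34, and under total counts −0.16 and −0.13. A scarce gene could pass the filter on low counts through a single group where it was high, such as *mut-16* at 25°C. With 10 counts required in every library, 3998 of 11009 genes were higher and the median over all genes was 0.01. The part of the filter in this pattern was not tested. Long transcripts were called lower more often than short ones, 45.6% against 24.9% between the longest and the shortest of 5 groups by exon length. The median log2 fold changes of these length groups were −0.22 and 0.36 with all libraries, and −0.30 and 0.38 without *mut-16* replicate 1. The part of length and of library 1 in the calls was not tested further.

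**Figure D1:**
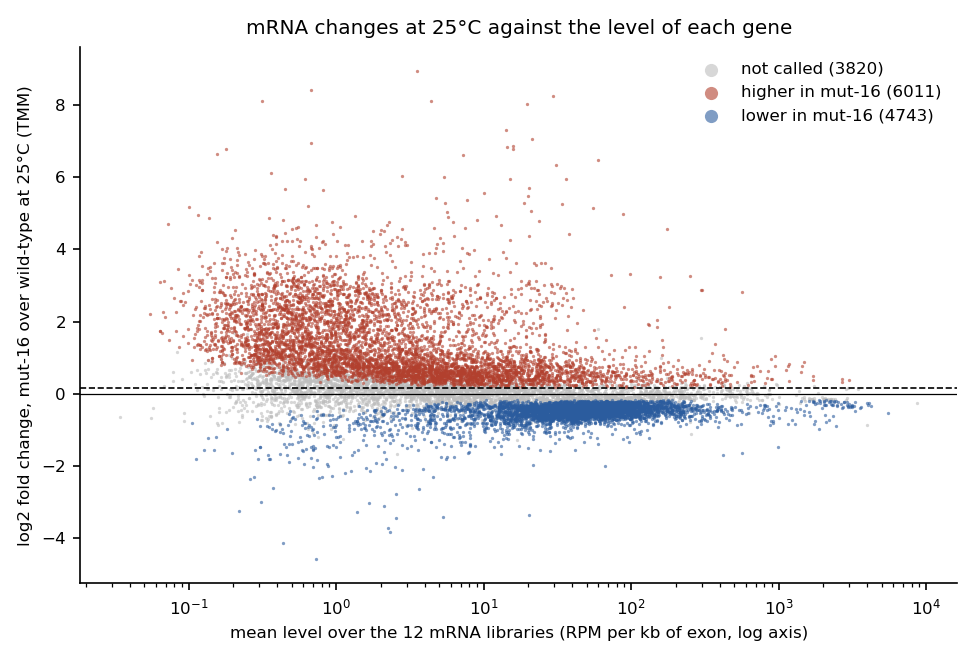
Log2 fold change of *mut-16* over wild-type mRNA at 25°C (TMM, vertical axis) against the mean level over the 12 mRNA libraries in RPM per kb of exon (log axis) for the 14574 tested genes with an exon length, coloured by call. Increases dominate among genes of low level, and the most abundant genes sit mostly just below 0.

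The *mut-16* transcript was still detected in the mutant. The gene (B0379.3, WBcel235 chromosome I, 10080159 to 10085765) had 49.4, 40.6 and 42.3 RPM in *mut-16*, against 127, 109 and 105 RPM in wild-type. The groups did not overlap, and the log2 fold change was −1.57 ± 0.15 (SE; edgeR adjusted p = 4.52e-07). Other members of the mutator complex were lower by smaller amounts. Of its 10 genes, 9 were lower and 0 higher (7 lower and 1 higher under total counts), with a median of −0.54. The endonuclease-like gene *nyn-1* changed by −0.64 ± 0.08, *rde-2*, whose product binds MUT-7, by −0.59 ± 0.11, the exonuclease gene *mut-7* by −0.56 ± 0.10 and the helicase gene *mut-14* by −0.57 ± 0.09. For *mut-14* the levels were 51, 64.7 and 66.5 RPM in *mut-16*, against 77.9, 80 and 76.9 RPM in wild-type, without overlap. The remaining gene, *nyn-2*, had a log2 fold change of −0.03 and was not called.

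Most genes that make or use small RNAs in the germline fell. Their shares are read against 32.5% lower over all genes, and against 64.3% and 67% in the fourth and highest level groups. Among 15 RNA-dependent RNA polymerase and Dicer-associated genes, 12 were lower (80%) and 1 higher (7 and 1 genes under total counts). The polymerase gene *ego-1* had 109, 89.9 and 91.6 RPM in *mut-16*, against 170, 124 and 126 RPM in wild-type, a log2 fold change of −0.74 ± 0.22 (adjusted p = 0.0108). The one increase was *rde-11*, a cofactor of exogenous RNA interference, at 76.5, 77.3 and 78.2 RPM in *mut-16*, against 44.4, 43.1 and 42.8 RPM in wild-type (log2 fold change 0.63 ± 0.10).

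Argonaute genes moved in both directions. Of 22 tested, 14 were lower (63.6%, near the shares in the fourth and highest level groups) and 4 higher (18.2%), with a median of −0.54. The germline genes *csr-1* (−0.82 ± 0.09), *wago-4* (−0.90 ± 0.09), *hrde-1* (−0.67 ± 0.10) and *wago-1* (−0.54 ± 0.10) were all lower, and so were the piRNA Argonaute gene *prg-1* at −0.65 and its close copy *prg-2* at −1.08 ± 0.16. For *csr-1* the levels were 356, 340 and 338 RPM in *mut-16*, against 547, 510 and 529 RPM in wild-type, with a wide gap between the groups. The 4 that rose were *alg-3* (2.52 ± 0.22), *alg-4* (2.42 ± 0.36), *wago-10* (2.08 ± 0.27) and *sago-1* (0.32 ± 0.09). ALG-3 and ALG-4 are the Argonautes of developing sperm, and SAGO-1 acts in the soma. The *alg-3* transcript had 7.65, 8.4 and 8.77 RPM in *mut-16*, against 0.811, 1.4 and 1.46 RPM in wild-type. None of the 20 nuclear RNAi and germline chromatin genes was higher, and 16 were lower (80%, and 8 genes under total counts). The histone methyltransferase gene *met-2* changed by −0.68 ± 0.17 and *mes-6*, a Polycomb-type subunit, by −0.64 ± 0.09.

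Every germ granule gene tested was lower. All 19 members of that list, which holds the P granule proteins and their neighbours, were called lower under TMM, under total counts, with DESeq2, with a minimum of 10 counts in every library, and without each of the 6 libraries in turn. The median log2 fold change was −0.63, and −0.42 under total counts. The summed level was 5129, 4877 and 4959 RPM in *mut-16*, against 7257, 6819 and 6953 RPM in wild-type. The range of the members was narrow, with *wago-4* at −0.90 and *gls-1* at −0.53 as the ends. For *pgl-1*, which encodes a core P granule protein, levels were 441, 409 and 416 RPM in *mut-16*, against 631, 620 and 635 RPM in wild-type (−0.78 ± 0.08, adjusted p = 6.67e-07). The Vasa-type helicase gene *glh-2* (−0.83 ± 0.13), the embryonic P granule gene *meg-1* (−0.81 ± 0.08) and the RNA helicase gene *cgh-1* (−0.76 ± 0.11) changed by similar amounts.

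The 36 meiosis genes, which build the synaptonemal complex, pair homologues and make crossovers, were all lower (32 under total counts), with a median of −0.57 and a range of −1.56 for *msh-4* to −0.35 for *air-2*. The crossover gene *msh-5* had 56, 56.6 and 51.9 RPM in *mut-16*, against 89.2, 74.9 and 79.7 RPM in wild-type (−0.78 ± 0.13). The zinc finger gene *zim-2*, which marks the pairing centre of an autosome, changed by −0.80 ± 0.13 and *pch-2*, a synapsis checkpoint gene, by −0.78 ± 0.09. Of 26 germline stem cell and sex determination genes, 22 were lower (15 under total counts), among them the Notch receptor gene *glp-1* (−0.49 ± 0.09) and the translational repressor gene *gld-1* (−0.74 ± 0.09). Levels of *gld-1* were 806, 750 and 752 RPM in *mut-16*, against 1103, 1121 and 1118 RPM in wild-type. The 3 members that rose were *her-1* (2.94), *fog-3* (1.39 ± 0.23) and *tra-3* (0.19 ± 0.08). FOG-3 directs germ cells to sperm fate, and HER-1 is the secreted signal that sets male fate. Both were scarce, with *fog-3* at 2.27, 1.95 and 2.31 RPM in *mut-16*, against 0.692, 0.702 and 0.748 RPM in wild-type.

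Oocyte and eggshell genes gave the same picture. Of 35 tested, 34 were lower and 1 higher (28 and 1 under total counts), with a median of −0.54. Their summed level was 15505, 15124 and 15323 RPM in *mut-16*, against 20509, 20657 and 20335 RPM in wild-type, so the groups lay far apart relative to their spread. The yolk receptor gene *rme-2* had 777, 754 and 756 RPM in *mut-16*, against 1243, 1250 and 1249 RPM in wild-type (−0.92 ± 0.09, adjusted p = 3.37e-07). Also lower were the eggshell genes *cpg-3* (−0.87 ± 0.09) and *cbd-1* (−0.84 ± 0.12), and *lin-41*, which holds oocytes back from early maturation (−0.87 ± 0.12). The exception was the caveolin gene *cav-1*, higher by 0.46 ± 0.09.

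**Figure D2:**
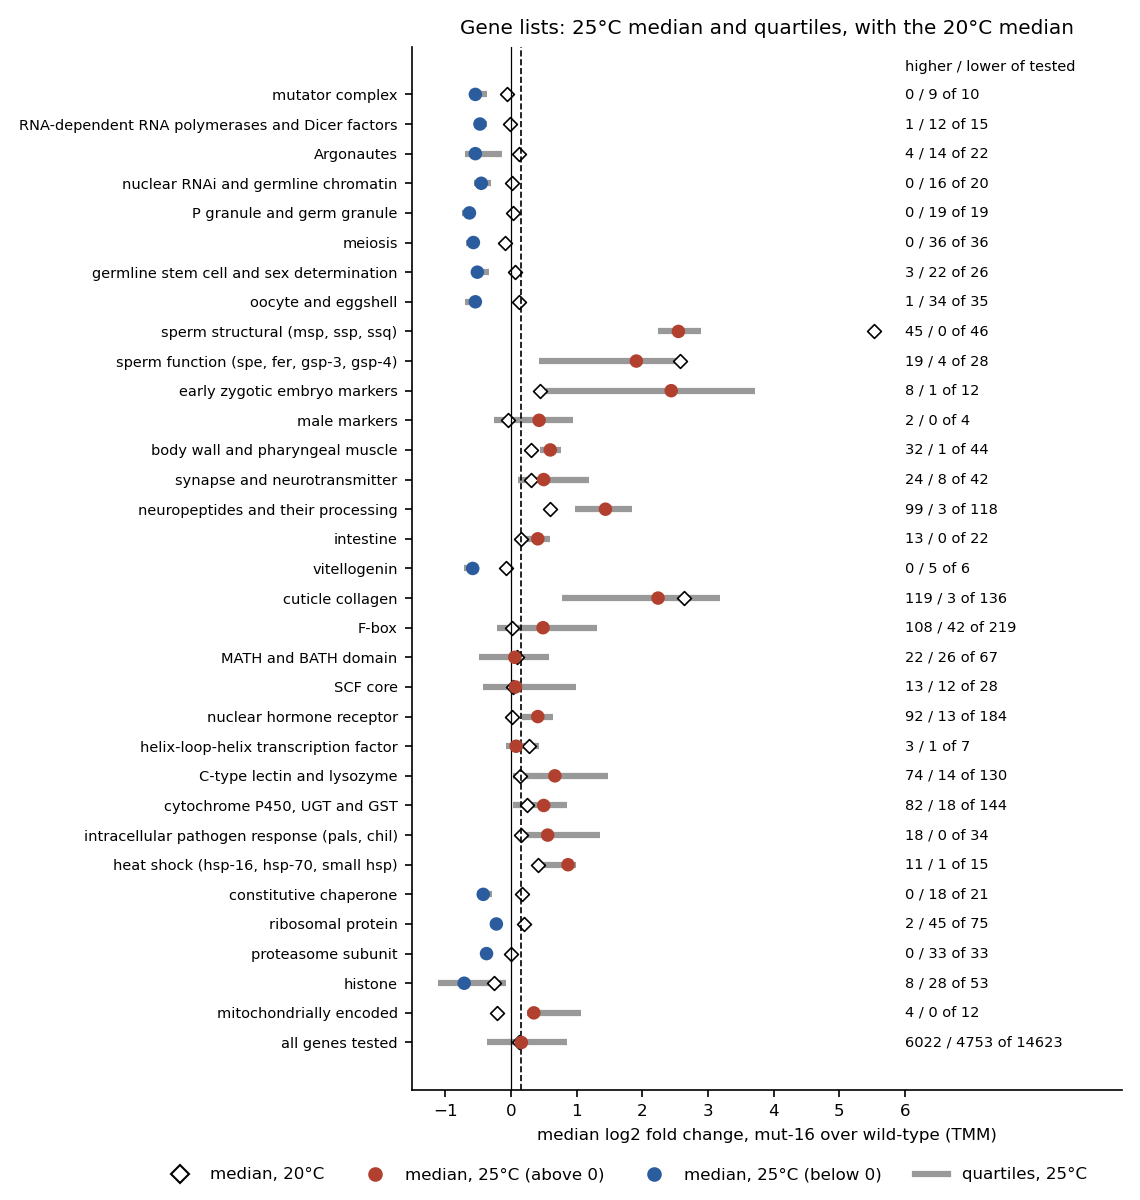
Log2 fold change of *mut-16* over wild-type mRNA at 25°C for the tested members of the gene lists, with the median and the middle range of the members, the counts of genes higher and lower, the median at 20°C as open diamonds, and the median of all genes (0.16) as a dashed line. Germline and small RNA pathway lists lie left of that line, with the P granule list at −0.63, and sperm, collagen and neuropeptide lists lie right of it.

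Sperm genes moved the other way. In the list of sperm structural genes, which holds the major sperm proteins and small sperm-specific proteins, 45 of 46 were higher and 0 lower, 45 of them at least 2-fold, with a median log2 fold change of 2.55. The summed level was 663, 725 and 731 RPM in *mut-16*, against 88.3 to 144 RPM in wild-type. The major sperm protein gene *msp-49* had 16.3, 21.7 and 20.8 RPM in *mut-16*, against 1.45, 2.14 and 2.23 RPM in wild-type (3.12 ± 0.16). Genes *msp-38* (3.07 ± 0.17) and *msp-45* (3.05 ± 0.18) rose to a like extent. These genes are near-copies of one another, and Salmon divides reads among copies, so the split between single msp genes is uncertain while their sum is not affected by it. Only 3 of the list were called higher when 10 counts were required in every library, since that filter leaves few of them in the test. Other spermatogenesis genes were also higher, among them *ssp-35* (2.80 ± 0.17), the calpain gene *clp-8* (3.05 ± 0.33), C15H11.1 (2.40 ± 0.28) and F57F4.1 (3.12 ± 0.35).

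Of 28 sperm function genes, 19 were higher and 4 lower (21 and 2 under total counts), with a median of 1.91. The share higher was 67.9%, against 41.2% over all genes and 68.2% in the lowest level group. The part of level in this share was not tested. With 10 counts required in every library, 3 were higher and 2 lower and the median was −0.04, so the sign of the median rests on genes with few counts in some libraries. The phosphatase gene *gsp-4*, needed for sperm chromatin and motility, had 10.7, 11.4 and 11.2 RPM in *mut-16*, against 0.978, 1.73 and 2.14 RPM in wild-type (2.56 ± 0.20). The calcium channel gene *spe-41* rose by 1.34 ± 0.20. The 4 that fell were *spe-5* (−0.56 ± 0.11), *spe-39* (−0.41 ± 0.09), *spe-44* and *spe-48*. SPE-5 is a subunit of the vacuolar proton pump and SPE-39 works in vesicle traffic, and both act in other cells as well as in sperm. No such role is given here for *spe-44* and *spe-48*, and in which cells the 4 transcripts fell was not tested. The abundant *spe-39* had 86.6, 86.4 and 85.7 RPM in *mut-16*, against 101, 95 and 103 RPM in wild-type.

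Markers of other cells that the samples could hold were read next. Eggs kept inside the mother and males both add their RNA to whole-animal samples. Of 12 early zygotic embryo markers tested, of 18 listed, 8 were higher and 1 lower, with a median of 2.44. The share higher was 66.7%, against 41.2% over all genes and 68.2% in the lowest level group. The part of level in it was not tested. With 10 counts required in every library, 0 markers were called and the median was 0.20. Their sum was 20.2, 19.8 and 20.1 RPM in *mut-16*, against 5.67, 6.92 and 6.28 RPM in wild-type. The gene *pes-10*, one of the first transcribed in the embryo, had 4.47, 5.44 and 4.7 RPM in *mut-16*, against 0.185, 0.351 and 0.336 RPM in wild-type (3.81 ± 0.30). The endoderm factor gene *end-3* went the opposite way, at 0.259, 0.283 and 0.263 RPM in *mut-16*, against 0.6, 0.667 and 0.86 RPM in wild-type. Of 15 male markers only 4 passed the filter on low counts. The sperm-activation regulator gene *swm-1* (0.78 ± 0.12) and the seminal protease gene *try-5* (1.46 ± 0.51) were higher, with *try-5* at 0.583 to 0.965 RPM in *mut-16*, against 0.185 to 0.351 RPM in wild-type. That is 50% of the markers tested, against 41.2% over all genes, and the other 2 were not called. Their log2 fold changes ran from −1.28 to 1.46 over the 4 genes. The median was 0.43, and −0.12 with 10 counts required in every library. The summed male markers were 29.8, 27.9 and 28.9 RPM in *mut-16*, against 23.2, 18.6 and 16.3 RPM in wild-type. The part of embryos and of males in the other changes was not tested.

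**Figure D3:**
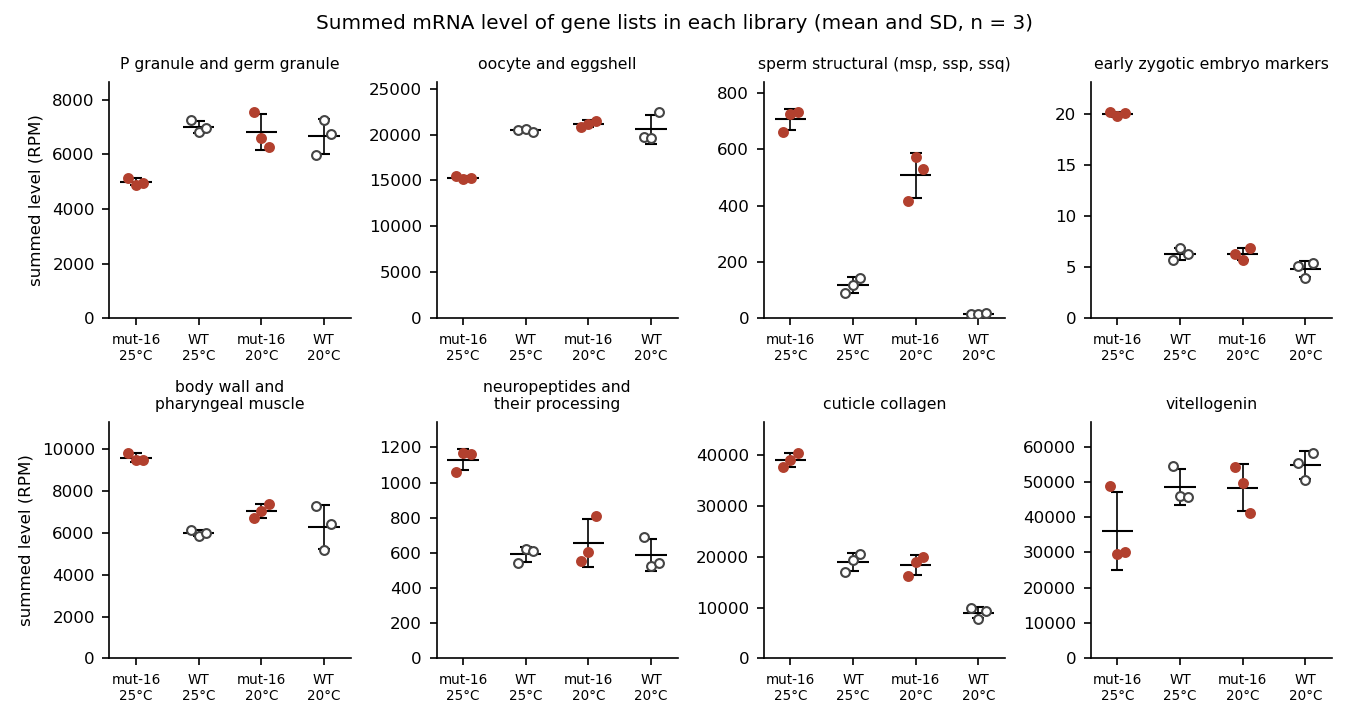
Summed mRNA level of 8 gene lists in each library (RPM, axes from 0), with mean and SD of 3 libraries, for *mut-16* and wild-type at 25°C and then at 20°C. At 25°C the *mut-16* points lie below wild-type for the P granule and oocyte lists and above it for sperm, embryo, muscle, neuropeptide and collagen lists, and the vitellogenin points overlap.

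Genes of somatic tissues were mostly higher. Of 44 muscle genes, 32 were higher and 1 lower (34 and 0 under total counts), with a median of 0.60. The summed level was 9845, 9475 and 9500 RPM in *mut-16*, against 6151, 5845 and 5993 RPM in wild-type. The troponin I gene *tni-1* had 58.8, 61.9 and 62.3 RPM in *mut-16*, against 19.4, 20.7 and 20.5 RPM in wild-type (1.39 ± 0.10). The dense-body gene *alp-1* rose by 1.02 ± 0.11. The body wall myosin gene *myo-3* rose by 0.86 ± 0.22, with 161, 106 and 108 RPM in *mut-16*, against 67.3, 51.1 and 61.2 RPM in wild-type. Replicate 1 of *mut-16* was the high one for the long myosin transcripts. The most abundant myosin gene, *unc-54*, had 774, 329 and 332 RPM in *mut-16*, against 331, 238 and 263 RPM in wild-type, and its log2 fold change of 0.58 ± 0.39 did not pass the test (adjusted p = 0.204). The only muscle gene that fell was the myosin chaperone gene *unc-45* (−0.32), which is also expressed in the germline. In which cells it fell was not tested.

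Neuronal genes were also mostly higher. Among 118 genes for neuropeptides and their processing, 99 were higher and 3 lower, with a median of 1.44. The summed level was 1063, 1171 and 1161 RPM in *mut-16*, against 542, 621 and 612 RPM in wild-type. The neuropeptide genes *flp-1* (1.92 ± 0.17), *nlp-10* (2.00 ± 0.23) and *nlp-21* (1.90 ± 0.17) each rose by more than that median, and *nlp-10* had 11, 11 and 10.9 RPM in *mut-16*, against 1.75, 2.7 and 2.62 RPM in wild-type. The processing enzyme genes *egl-3*, a proprotein convertase, and *egl-21*, a carboxypeptidase, rose by 1.37 ± 0.14 and 1.00 ± 0.13. The most abundant member, *nlp-40*, which is made in the intestine, had 185, 182 and 181 RPM in *mut-16*, against 150, 162 and 154 RPM in wild-type, and was not called (0.03 ± 0.11).

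Of 42 synapse and neurotransmitter genes, 24 were higher and 8 lower (30 and 3 under total counts), with a median of 0.50. Genes of neuron-specific function were among the increases. They include the synaptotagmin gene *snt-1* (1.65 ± 0.16), the GABA synthesis gene *unc-25* (1.59 ± 0.15) and *rab-3*, a synaptic vesicle GTPase gene (1.11 ± 0.13). For *rab-3* the levels were 8.42, 9.28 and 9.21 RPM in *mut-16*, against 4.15, 3.34 and 3.36 RPM in wild-type. The tyrosine decarboxylase gene *tdc-1* changed by −0.62 ± 0.08 and *tbh-1*, for the next enzyme of the same octopamine pathway, by −0.53. Both are also expressed in gonadal cells. In which cells these and the other lower genes of the list fell was not tested. The fatty acid amide hydrolase gene *faah-1* had 48.7, 53.6 and 53.5 RPM in *mut-16*, against 13.8, 17 and 17 RPM in wild-type (adjusted p = 1.57e-08).

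Intestinal and yolk genes differed. Of 22 intestine genes, 13 were higher and 0 lower, with a median of 0.41. The desaturase gene *fat-7* rose by 1.53 ± 0.20, the intermediate filament gene *ifb-2* by 0.83 ± 0.13 and the intestinal actin gene *act-5* by 0.63 ± 0.14. The abundant protease gene *asp-1* had 1914, 1895 and 1940 RPM in *mut-16*, against 1248, 1555 and 1553 RPM in wild-type, and its log2 fold change of 0.20 ± 0.19 was not called. Vitellogenins, the yolk proteins that the intestine makes for oocytes, had 5 of 6 genes lower (2 under total counts), with a median of −0.58. Their sum was 48908, 29470 and 29985 RPM in *mut-16*, against 54495, 45857 and 45568 RPM in wild-type. Replicate 1 of *mut-16* lay within the wild-type range, and the count of genes that fell ran from 2 to 6 as single libraries were left out, with 6 without *mut-16* replicate 1.

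The cuticle collagens, which form the outer coat and are made in waves around each moult, had 87.5% of 136 tested genes higher and 3 genes lower (123 higher and 0 lower under total counts), with a median log2 fold change of 2.24. With 10 counts required in every library, 56 were higher and the median was 1.10. The summed level was 37679, 39148 and 40546 RPM in *mut-16*, against 17106, 19380 and 20566 RPM in wild-type. The most abundant member, *col-124*, had 3030, 3084 and 3184 RPM in *mut-16*, against 1290, 1465 and 1603 RPM in wild-type (0.89 ± 0.08). Larger changes were seen for scarce members, *col-73* (4.60 ± 0.24) and *col-138* (4.30 ± 0.42). The levels of *col-73* were 18.8, 18.1 and 18.9 RPM in *mut-16*, against 0.279, 0.568 and 1.1 RPM in wild-type. The list was drawn by name and also took in *dpy-5*, a convertase that processes collagen, at 13, 14.2 and 14.7 RPM in *mut-16*, against 0.231, 0.386 and 1.08 RPM in wild-type (4.37 ± 0.28).

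Large gene families held both increases and decreases, and their shares are read against 41.2% higher and 32.5% lower over all genes. Those of the F-box list were 49.3% higher and 19.2% lower, those of the MATH and BATH list 32.8% and 38.8%, and those of the SCF core list 46.4% and 42.9%, so the last 2 lay near the shares over all genes. Of 219 F-box genes, whose products choose targets for ubiquitination, 108 were higher and 42 lower, with a median of 0.49. The largest increases were *fbxb-14* (6.35 ± 0.17), *fbxb-97* (3.63 ± 0.14) and *fbxa-11* (3.57 ± 0.13). The gene *fbxb-14* had 45.8, 44.6 and 43.2 RPM in *mut-16*, against 0.6, 0.597 and 0.224 RPM in wild-type. The most abundant, *fbxa-215*, was lower, at −0.38 ± 0.07. Of 67 MATH and BATH domain genes, 22 were higher and 26 lower (28 and 18 under total counts), and *bath-45* had 51.2, 51.2 and 52 RPM in *mut-16*, against 3.14, 2.84 and 2.88 RPM in wild-type (3.92 ± 0.13). The 28 SCF core genes had 13 higher, led by the Skp1-related gene *skr-10* (2.95 ± 0.17), and 12 lower (14 and 8 under total counts), with the cullin gene *cul-2* lower at −0.60 ± 0.09.

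Of 184 nuclear hormone receptor genes, 92 were higher (50%) and 13 lower (131 and 5 under total counts), mostly by small amounts, with a median of 0.41 and 10 genes higher by at least 2-fold. The receptor gene *nhr-31* rose by 0.72 ± 0.09, and the abundant *nhr-49*, a regulator of fat metabolism, had a log2 fold change of −0.14 ± 0.08 and was not called. Of 7 helix-loop-helix genes tested, 3 were higher (42.9%, near the share over all genes) and 1 lower (3 and 0 under total counts), and their median of 0.08 changed sign with the libraries left out. The C-type lectin and lysozyme genes, many of them used in immunity, had 74 of 130 higher and 14 lower, with a median of 0.67 that was 0.32 with 10 counts required in every library. Examples are *clec-160* (1.62 ± 0.13), *clec-170* (1.55 ± 0.14) and *clec-71* (1.48 ± 0.14). Of 144 cytochrome P450, UGT and GST genes of detoxification, 82 were higher and 18 lower (95 and 11 under total counts), with *ugt-41* higher by 1.91 ± 0.16 and the abundant *gst-1* lower at −0.66 ± 0.10. The pals and chil genes of the response to intracellular pathogens had 18 of 34 higher and 0 lower (26 and 0 under total counts). The chitinase-like gene *chil-22* had 11 to 11.7 RPM in *mut-16*, against 4.66, 4 and 3.74 RPM in wild-type (1.24 ± 0.17).

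Stress-inducible and constitutive chaperones moved apart. Of 15 heat shock genes, 11 were higher and 1 lower, with a median of 0.87. Each increase was of a transcript scarcer than the one that fell. The small heat shock gene *hsp-16.2* had 4.15, 4.25 and 4.1 RPM in *mut-16*, against 2.21, 1.83 and 1.94 RPM in wild-type (0.86 ± 0.20), and *hsp-12.2* rose by 0.88 ± 0.11. The one decrease, *sip-1*, a small heat shock protein gene of oocytes and embryos, was by far the most abundant, at 861, 941 and 979 RPM in *mut-16*, against 1179, 1248 and 1290 RPM in wild-type (−0.63 ± 0.11). The sum of the list was therefore lower in *mut-16*, 1184, 1275 and 1303 RPM, against 1391, 1484 and 1532 RPM in wild-type. Of 21 constitutive chaperone genes, 18 were lower and 0 higher (11 and 1 under total counts). The chaperone gene *hsp-90* had 2633, 2855 and 2886 RPM in *mut-16*, against 3632, 3500 and 3671 RPM in wild-type (−0.58 ± 0.08), and the chaperonin gene *cct-6* was lower at −0.52 ± 0.07.

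Housekeeping genes showed how far scaling decides small changes. All 33 proteasome subunit genes were lower under TMM, with a median of −0.37, and 14 under total counts. The regulatory subunit gene *rpn-2* had 331, 360 and 357 RPM in *mut-16*, against 468, 472 and 486 RPM in wild-type (−0.65 ± 0.08). Of 75 ribosomal protein genes, 45 were lower and 2 higher under TMM with a median of −0.22, but 2 were lower and 3 higher under total counts with a median of −0.01, so their direction rests on the scaling. A pair of near-copies moved apart whatever the scaling. The level of *rpl-11.1* was 1037, 1103 and 1146 RPM in *mut-16*, against 1585, 1569 and 1554 RPM in wild-type (−0.73 ± 0.07), and that of *rpl-11.2* was 550, 597 and 615 RPM in *mut-16*, against 280, 327 and 307 RPM in wild-type (0.74 ± 0.11). Salmon could split reads between these copies unevenly. The genes *cdc-42* and *rpl-32*, often used as references in quantitative PCR, had log2 fold changes of −0.30 ± 0.09 and −0.34 ± 0.08 under TMM and passed the test, and of −0.09 and −0.13 under total counts, where neither passed.

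Histone genes were read with the reserve that most replication-dependent histone transcripts of animals lack a poly(A) tail and that their copies are nearly identical. Of 53 tested, 28 were lower and 8 higher, with a median of −0.71. The linker histone gene *his-24* stood out with 65.4, 64.1 and 67 RPM in *mut-16*, against 10.1, 10.9 and 11.3 RPM in wild-type (2.40 ± 0.09). The core histone gene *his-61* had 5.87, 4.24 and 4.04 RPM in *mut-16*, against 12.9, 8.2 and 10 RPM in wild-type (−1.37 ± 0.26). Of 12 mitochondrially encoded genes 4 were higher and 0 lower (9 and 0 under total counts), and the count ran from 0 to 7 as single libraries were left out. Their share of counts was 1.91%, 2.73% and 2.55% in *mut-16*, against 1.71%, 1.8% and 1.69% in wild-type.

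The largest increases were of transcripts that were close to absent in wild-type. Among genes with at least 10 RPM in the higher group, the largest was ZC15.3 (chromosome V, 20303588 to 20304908), with 66.1, 76.8 and 80.1 RPM in *mut-16*, against 0.206, 0.191 and 0.264 RPM in wild-type (8.24 ± 0.15, adjusted p = 3.1e-15). Next came R09H3.3 (chromosome X, 1666929 to 1668848), with 55.8, 66.5 and 64.8 RPM in *mut-16*, against 0.415, 0.211 and 0.411 RPM in wild-type (7.30 ± 0.22). The third, C38D9.2 (chromosome V, 17567150 to 17571742), had 144, 169 and 169 RPM in *mut-16*, against 0.888, 1.2 and 1.06 RPM in wild-type (7.05 ± 0.20). The other 7 were R09E10.2, F41G4.7, F16B4.6, F47B7.6, F07B7.1, *fbxb-14* and *sosi-1*, with log2 fold changes of 6.86 down to 5.99. The pseudogene F47B7.6 (chromosome X, 3769729 to 3770643) had 16.9, 19.5 and 18.6 RPM in *mut-16*, against 0.323, 0.14 and 0.0374 RPM in wild-type. A further 7 called genes had 0 counts in all 3 wild-type libraries at 25°C. Against a floor of 3 counts in each wild-type library, their mean RPM was at least 5.18-fold higher in *mut-16* for *msd-1* and ZK250.14 and at least 24.2-fold higher for *msrp-3*.

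The largest decreases were far smaller. The pseudogene Y35H6.3 (chromosome X, 16541 to 34439) had 2.3, 1.17 and 1.28 RPM in *mut-16*, against 12.2, 13.8 and 15.6 RPM in wild-type (−3.44 ± 0.21). The pseudogene T08D2.3 (chromosome X, 173180 to 177000) had 3.39, 2 and 1.78 RPM in *mut-16*, against 17.8, 16 and 16.4 RPM in wild-type (−3.10 ± 0.23). Next were T08D2.8, Y73B3B.5, F47E1.4, Y22D7AL.9 and Y73B3A.3, with −2.65 to −2.03. The near-copies *pud-3* and *pud-4* followed, with *pud-4* at 10, 11 and 10.9 RPM in *mut-16*, against 34.4, 37.7 and 37.3 RPM in wild-type (−1.98 ± 0.23). The last of the 10 was *dmd-9*, a gene with a DM domain, at −1.80 ± 0.13. No gene among these 20 had overlapping groups, which the rule for naming them required.

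**Figure D4:**
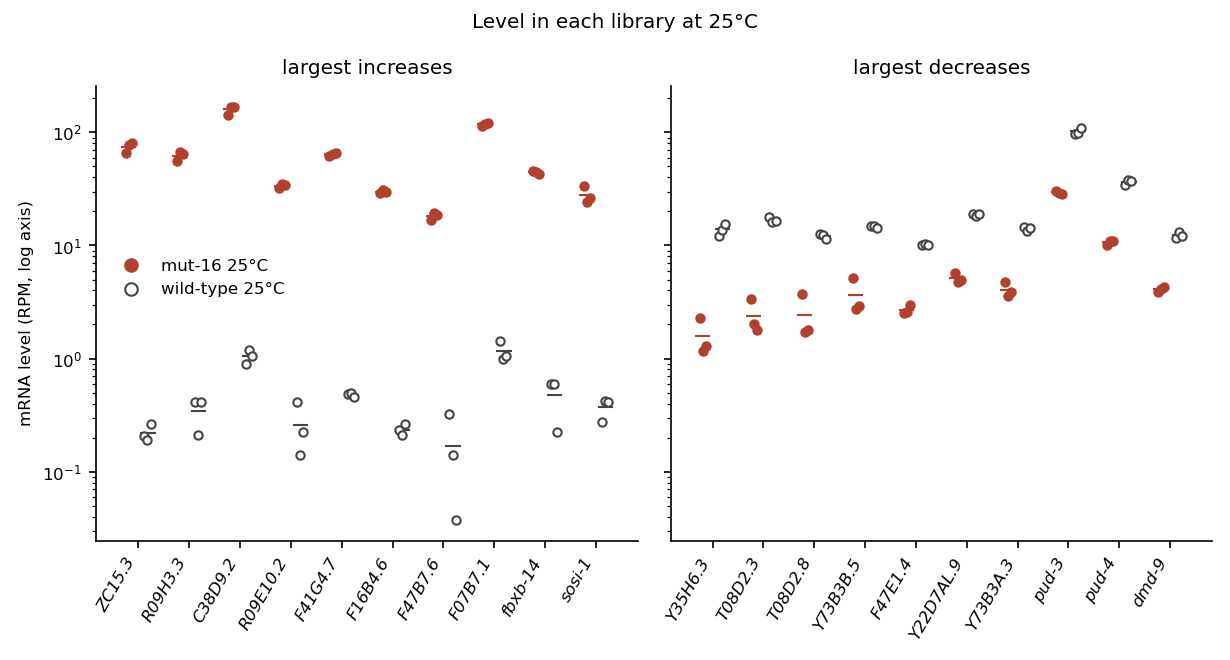
Level in each library at 25°C (RPM, log axis) of the 10 genes with the largest increase and the 10 with the largest decrease, with *mut-16* as filled and wild-type as open points and a line at each mean. The increases span 5.99 to 8.24 on the log2 scale, and the decreases −1.80 to −3.44.

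Calls differed between the chromosomes. On X, 1044 of 2023 genes were higher and 215 lower (51.6% and 10.6%; 1329 and 111 genes under total counts), with a median log2 fold change of 0.39. On chromosome V, 1345 of 2845 were higher and 728 lower (1594 and 440 under total counts), with a median of 0.38. Chromosomes I and III leaned the other way, with 748 higher and 1079 lower of 2376 and 697 higher and 1010 lower of 2280, and medians of −0.19 and −0.17. Under total counts I had 904 higher and 578 lower and III had 863 higher and 587 lower, with medians of 0.02 and 0.04, so their direction rests on the scaling. The X chromosome is kept largely silent in germ cells, and few of its genes are highly expressed there. The contrast with the autosomes was largest among abundant genes. In the highest of the 5 level groups, 55.9% of 143 X-linked genes were higher and 15.4% lower, against 8.37% higher and 70% lower of 2760 autosomal genes. In the lowest group the X-linked share was 61.9%, against 69.3% on autosomes.

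**Figure D5:**
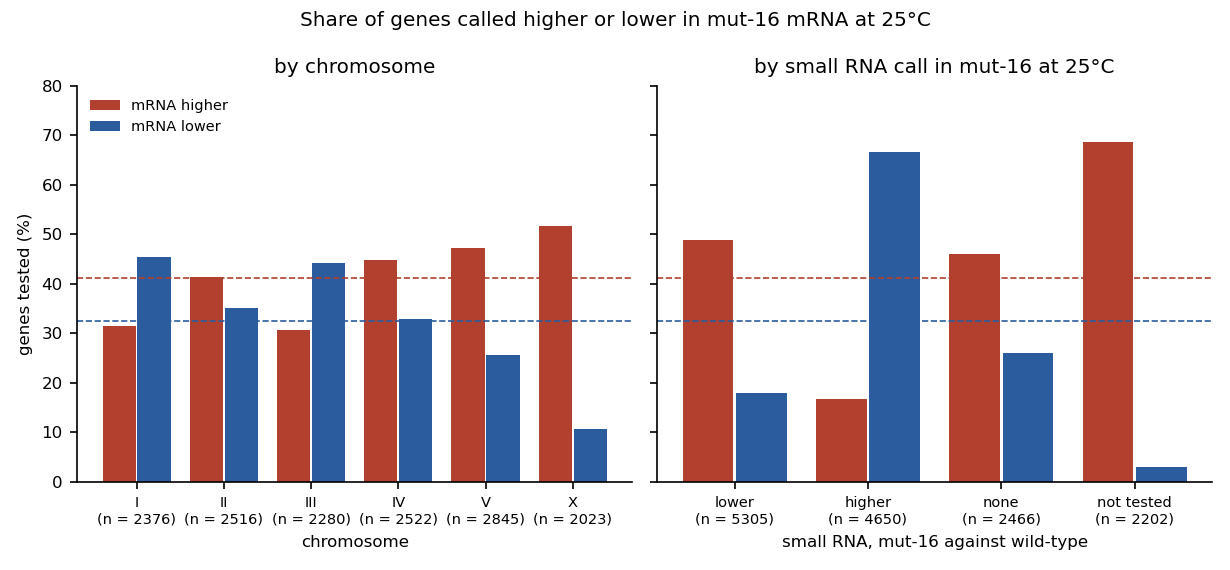
Share of tested genes called higher or lower in *mut-16* mRNA at 25°C (percent), by chromosome on the left and by the gene's small RNA call in *mut-16* at 25°C on the right. Dashed lines give the shares over all genes, 41.2% higher and 32.5% lower. The X chromosome has 51.6% of genes higher and 10.6% lower, and genes with more small RNA have 66.6% lower.

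One end of X went against the rest of that chromosome. Windows of 200 kb with at least 10 tested genes were compared after the values had been seen, and the lowest median among 497 windows was −1.44, at X 1 to 200000. The next lowest was −0.58, and 85 of the 88 windows on X had a median above 0. From X 261 to 207723 (CE7X_3.1 to Y73B3B.5), 25 genes were tested, 15 of them pseudogenes, and 22 were lower and 0 higher (21 lower under total counts, 22 with DESeq2). The outermost, CE7X_3.1, had 0.755, 0.42 and 0.531 RPM in *mut-16*, against 6.69, 6.3 and 7.03 RPM in wild-type (−3.84 ± 0.23). The stretch held 5 of the 10 largest decreases named above. The protein-coding gene Y73B3A.1 was the most abundant of the named ones, with 42.3, 37 and 39 RPM in *mut-16*, against 78.9, 76.9 and 72.9 RPM in wild-type (−1.16 ± 0.10). In the 20°C libraries, which share no sample with these, 20 of the 25 were lower and 0 higher, and all 20 were also lower at 25°C. Each genotype was a single strain, so an effect of *mut-16* loss on this stretch cannot be told apart from any other difference between the strains there, and this holds for the 5 large decreases too. The next 25 genes to the right (X 209108 to 425635) had 12 higher and 3 lower at 25°C, with a median of 0.43.

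The small RNA libraries at 25°C placed these changes beside the loss of the small RNAs themselves. Small RNA counts were lower in *mut-16* for 7540 of 16025 genes tested (47.1%) and higher for 5022 (31.3%). Of those 5022 genes, 1476 were higher by at least 2-fold, and 59 turned to lower with 10 counts required in every library. Relative levels are compared, so a loss of some small RNAs raises the share of others. Of 12421 genes tested in both assays, 5305 had fewer small RNAs, and 2594 of those were higher in mRNA (48.9%, against 36.3% of all 12421 genes). That is 57.5% of the 4509 genes with higher mRNA. Of 4650 genes with more small RNA, 3097 were lower in mRNA (66.6%, against 37.8% of all), which is 66% of the 4689 genes with lower mRNA. The median small RNA log2 fold change was −1.38 for genes with higher mRNA and 0.53 for genes with lower mRNA. Another 2202 genes had too few small RNAs to be tested, and 68.7% of these were higher in mRNA. That share was 41.2% over all genes tested and 68.2% in the lowest level group, and the part of level in it was not tested. The gene *bath-45* had a mean of 62.9 RPM of small RNA in *mut-16*, against 3880 RPM in wild-type, and F47B7.6 had 11.8 RPM in *mut-16*, against 928 RPM in wild-type. Of the 10 largest mRNA increases, 9 had fewer small RNAs and R09E10.2 had more, at a scarce 1.4 RPM in *mut-16*, against 0.549 RPM in wild-type (small RNA log2 fold change 1.63, adjusted p = 0.00812). Small RNA of C38D9.2 stood at 519 RPM in *mut-16*, against 1479 RPM in wild-type, and that of ZC15.3 at 280 RPM in *mut-16*, against 854 RPM in wild-type. At the left end of X, where mRNA fell, small RNAs were lower for 20 of 24 genes tested and higher for 2. The next 25 genes to the right, which were mostly not lower in mRNA, were similar in this, with 18 of 23 lower and 2 higher. Pseudogenes as a class had 156 of 524 higher in mRNA (29.8%, against 41.2% over all genes) and 170 lower (32.4%, against 32.5%).

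The effect of *mut-16* loss at 25°C was set beside that at 20°C, where 3812 genes were higher (26.1%) and 1631 lower (11.2%). Culture lasted about 48 h at 25°C but some 68 h at 20°C, so temperature and time in culture cannot be told apart. Of the 6022 genes higher at 25°C, 3025 were also higher at 20°C, and of the 4753 lower genes 1136 were also lower at 20°C. The difference between the effects was tested as an interaction. It was positive, with a larger log2 fold change at 25°C, for 1416 genes (9.68%), and negative for 3150 (21.5%). Under total counts these were 3147 and 889, so the balance of the difference turned round with the scaling. The positive count was 878 without wild-type 20°C replicate 1 and 2311 without *mut-16* 20°C replicate 3. The median interaction was −0.10 under TMM and 0.19 under total counts.

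Many germline genes had a more negative log2 fold change at 25°C than at 20°C, and so did some housekeeping lists. The P granule list had a median of −0.63 at 25°C and 0.03 at 20°C, with 17 of 19 genes negative in the interaction (7 under total counts). For *pgl-1* the log2 fold change was −0.78 at 25°C and 0.04 at 20°C, a difference of −0.82 (adjusted p = 0.000211). The oocyte and eggshell list had a median of −0.54 at 25°C and 0.13 at 20°C, with 33 of 35 negative (22 under total counts). Meiosis genes had 22 of 36 negative (5 under total counts) and germline stem cell and sex determination genes 18 of 26 (7 under total counts). Outside the germline lists, 18 of 21 constitutive chaperone genes (8 under total counts) and 56 of 75 ribosomal protein genes (2 under total counts) were negative as well. Sperm structural genes rose at both temperatures, with a median of 2.55 at 25°C and 5.53 at 20°C. Their summed level was 417, 574 and 530 RPM in *mut-16* at 20°C, against 15.7, 14.1 and 18.5 RPM in wild-type at 20°C, and wild-type itself stood at 88.3 to 144 RPM at 25°C. The *mut-16* sum at 25°C, 663 to 731 RPM, was thus above that at 20°C, while the fold was smaller at 25°C, with 41 of 46 genes negative in the interaction (39 under total counts).

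Somatic groups differed among themselves in the interaction. Neuropeptide genes had a median of 1.44 at 25°C and 0.59 at 20°C, with 34 of 118 positive in the interaction and 1 negative (51 and 0 under total counts). For *rab-3* the log2 fold change was 1.11 at 25°C and 0.12 at 20°C (difference 0.99, adjusted p = 0.00237), and for *faah-1* the difference was 1.20 (adjusted p = 9.19e-05). Muscle genes had medians of 0.60 at 25°C and 0.31 at 20°C, with 12 positive and 2 negative (20 and 0 under total counts). For *myo-3* the difference of 0.19 did not pass (adjusted p = 0.656). Collagens rose at both temperatures, with medians of 2.24 at 25°C and 2.64 at 20°C, and had 1 gene positive and 23 of 136 negative (4 and 5 under total counts). Intestine genes had 7 of 22 positive and 0 negative (12 and 0 under total counts), and none of the 6 vitellogenins was called. Early zygotic markers had a median of 2.44 at 25°C and 0.44 at 20°C, and *pes-10* had a log2 fold change of 3.81 at 25°C and 0.26 at 20°C (difference 3.55, adjusted p = 0.00164).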

How the data were processed

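Libraries were made with oligo(dT) beads and a directional kit and sequenced as single reads. The deposited values are estimated counts per gene without normalization, which the authors obtained by trimming reads and assigning them to the WS258 transcriptome with Salmon. The submitters' processing notes also name cutadapt, HISAT2 and Bowtie2. Versions are not given in the sources used here. Salmon divides reads among near-identical copies, so single members of multigene families are uncertain. Each table had 46970 rows for 45904 gene names, and rows of the same name were added up and rounded. Gene positions come from the WBcel235 annotation.

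The 12 mRNA libraries were fitted together with edgeR 4.0.16 in R 4.3.3 (filterByExpr, TMM scaling, robust quasi-likelihood, a coefficient for each group), and a gene was called where its p, adjusted by Benjamini and Hochberg's method over all genes tested, was under 0.05. The 12 small RNA libraries were fitted likewise. SEs were taken as the absolute fold change on the log2 scale over the square root of F. Scripts were tested on simulated data. Alternatives were total counts, DESeq2 1.42.0, other filters and thresholds, the replicate number as a block, only the groups compared, and leaving out each library. Adding up *mut-16* replicates 2 and 3 was chosen after seeing the data.

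The comparison and the 32 gene lists were chosen with earlier results of these data known. Named genes were *mut-16*, genes the paper names, and the 10 largest changes in each direction. Those changes needed at least 10 RPM in the higher group, an adjusted p under 0.05 and no overlap. Up to 3 such members and the most abundant member of each list were also named. So were the 5 largest interactions in each direction, under the same level and overlap rules at 25°C and an interaction adjusted p under 0.05. The last were the 5 largest increases among genes whose small RNAs fell. Other genes of the lists and the left end of X were named after their values were seen. All 6 mRNA libraries at 25°C carry the mark RE in their titles, which is not explained and does not separate the genotypes. Among the mRNA libraries at the lower temperature, replicate 3 of each genotype lacks the mark. The part of the mark in the differences between the temperatures was not tested.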

Additional observations from a re-analysis of the deposited data

Results flagged for a closer look

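The effect of *mut-16* loss differed between 25°C and 20°C by the interaction test of edgeR (adjusted p under 0.05) for 1416 genes with a larger and 3150 with a smaller log2 fold change at 25°C. Under total counts these were 3147 and 889, and the larger were 878 without wild-type 20°C replicate 1 and 2311 without *mut-16* 20°C replicate 3. The genes below had the largest differences among genes of 10 RPM or more in the higher group, and each passed the test in all 17 or 18 alternatives run for it.

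A larger value at 25°C was found for the pseudogene F47B7.6 (difference 5.25, adjusted p = 0.00032), whose mean level was 0.391 RPM in *mut-16* at 20°C, against 0.163 RPM in wild-type at 20°C. R09H3.3 had a difference of 3.20 (adjusted p = 0.00226), with a log2 fold change of 7.30 at 25°C, and means at 20°C of 3.46 RPM in *mut-16*, against 0.212 RPM in wild-type. The neuroligin-like gene *glit-1* had a difference of 2.57 (adjusted p = 1.22e-08). Its levels were 150, 152 and 154 RPM in *mut-16* at 25°C, against 15.3, 15.2 and 14.7 RPM in wild-type at 25°C, and its means were 18.2 RPM in *mut-16* at 20°C, against 13.1 RPM in wild-type at 20°C. At the left end of X, Y73B3A.1 had a difference of 2.62 and was lower at both temperatures, with means of 4.95 RPM in *mut-16* at 20°C, against 72.2 RPM in wild-type at 20°C. Beyond that stretch, the pseudogene AC8.1 had a difference of 2.59 and changed sign, with a log2 fold change of 0.82 at 25°C and −1.78 at 20°C.

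A smaller value at 25°C was found for *nsph-4.1* (−6.19), F11D11.3 (−6.09), F26B1.8 (−5.75), *rmd-3* (−4.47) and *msp-152* (−4.36). All were higher in *mut-16* at both temperatures. In wild-type at 20°C they were at or near 0, with means of 0 RPM for F11D11.3, 0.0085 for *nsph-4.1*, 0.0186 for F26B1.8, 0.0317 for *rmd-3* and 0.191 for *msp-152*, so the size of these differences depends on the prior count of the fit and is no bound.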

How the results depend on the processing

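Of the 1905 values of named genes under an alternative, 1846 kept their side of the threshold, 48 no longer passed and 11 newly passed. In 0 of them did a called gene change sign, or an uncalled gene pass in the opposite direction. Uncalled genes could change sign without passing, as *nlp-40* did (0.03, with a range of −0.04 to 0.23). Many named genes were picked by their values in these same libraries. With 10 counts in every library, 3998 genes were higher at 25°C, 1648 higher at 20°C, 2246 and 1102 positive and negative in the interaction, and small RNAs were higher for 2976 and lower for 3285. At least a 2-fold change left 3169 higher and 240 lower at 25°C, 2016 and 203 at 20°C, 566 and 570 in the interaction, and 1476 with higher small RNA. Total counts gave 2680 lower at 25°C, and 3147 positive and 889 negative in the interaction. An adjusted p under 0.01 left 530 positive and 1451 negative in the interaction and 983 lower at 20°C, where no filter gave 2474 lower and only the groups compared gave 1930 higher. Over all genes, the median at 25°C (log2) was 0.37 under total counts, 0.13 with DESeq2, 0.01 with 10 counts in every library, 0.15 with only the groups compared, and 0.09 (without wild-type 25°C replicate 1) to 0.16 as libraries were left out. The positive interactions ran from 878 without wild-type 20°C replicate 1 to 2311 without *mut-16* 20°C replicate 3. The cause of these changes was not tested, other than the fewer genes tested or called under stricter rules. With 10 counts in every library, fewer genes of several lists were tested, and 55 neuropeptide, 64 F-box, 9 pals and chil and 6 heat shock genes were higher. Adding up *mut-16* replicates 2 and 3 as 1 library gave 5699 higher and 4236 lower at 25°C.

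Same-numbered libraries of *mut-16* and wild-type at 25°C correlated by 0.115, 0.065 and 0.018 in their deviations from the group means, and *mut-16* replicate 3 correlated more with wild-type replicate 2 (0.075), so the numbers were not taken as pairs. With the replicate block, 6005 genes were higher and 4816 lower at 25°C.

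Depth limits scarce genes. In wild-type at 25°C, 3 counts per library were worth 0.119 RPM on average, and genes near that level give folds that rest on few reads.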

Other observations

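Noncoding genes were few among those tested. Of 13 lincRNA genes, 8 were higher and 2 lower in *mut-16* at 25°C, with a median log2 fold change of 0.63, and of 10 genes of the class ncRNA, 7 were higher and 0 lower, with a median of 1.90. These counts stand beside 41.2% higher and 32.5% lower over all genes.

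To the right of the stretch at the left end of X where transcripts were lower, 2 neighbouring protein-coding genes were higher. AC8.10 had 40.7, 30.8 and 30.5 RPM in *mut-16*, against 4.61, 4.71 and 3.85 RPM in wild-type (log2 fold change 2.74 ± 0.16), and AC8.11 had 21.7, 17.6 and 17.2 RPM in *mut-16*, against 2.95, 2.46 and 2.36 RPM in wild-type (2.66 ± 0.17). Both were also higher at 20°C, by 2.75 and 2.52. They were named after their values were seen.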
